A study of Homo sapiens with 6 samples.

Results

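Cells adjust the amount of α- and β-tubulin at 2 steps after transcription, and 10 genes that act at these steps were followed here. The members were picked by symbol from the known parts of both pathways, with earlier results of these data known, and not by a threshold on any value. All 10 symbols were found among the 60624 genes of the deposited table, whose unit is TPM, an abundance scaled for transcript length and for the size of the library, and all 10 were abundant enough to be tested. A549, a widely used human lung adenocarcinoma line, had been transfected for 3 days with siCEP20, a small interfering RNA (siRNA) against the centrosomal gene CEP20, or with a control siRNA called siCTR. RNA from 3 libraries of each group was sequenced, and no other treatment or genetic change separated the groups in the sample labels. The comparison asks how the mRNA of these genes differed after the siRNA had lowered CEP20 mRNA. Effects of the siRNA on targets other than CEP20 were not tested.

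When free tubulin is plentiful, cells degrade tubulin mRNA while it is being translated, a feedback known as tubulin autoregulation. TTC5 recognizes the first amino acids of a nascent tubulin chain at the ribosome, and SCAPER links TTC5 to the CCR4-NOT deadenylase through CNOT11. CNOT1 is the scaffold of that deadenylase, which shortens the poly(A) tail. Newly made tubulin is then folded in the CCT chaperonin and passed to the tubulin cofactors. TBCA and TBCD hold β-tubulin, TBCB and TBCE hold α-tubulin, and TBCC promotes the release of the finished α-β pair. The small GTPase ARL2 works in a complex with TBCD and TBCE. Centrosomes and cilia, where CEP20 resides, are built on microtubules made of these subunits.

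The signal read by TTC5 lies in the first 4 codons of tubulin mRNA, which spell methionine, arginine, glutamate and then isoleucine in β-tubulin or cysteine in α-tubulin. The first 30 coding bases of 6 abundant tubulin genes, taken from the GENCODE release 44 canonical transcripts on hg38, are therefore shown 5′ to 3′ with those 12 bases in capitals:
TUBA1B: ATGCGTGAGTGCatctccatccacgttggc
TUBA4A: ATGCGTGAATGCatctcagtccacgtgggg
TUBB: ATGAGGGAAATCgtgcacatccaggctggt
TUBB4B: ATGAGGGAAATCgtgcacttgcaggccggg
TUBB3: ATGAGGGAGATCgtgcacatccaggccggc
TUBB6: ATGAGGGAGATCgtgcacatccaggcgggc
The TUBA1B stretch spans chr12:49129696-49131300 and that of TUBA4A chr2:219252204-219253858, both on the minus strand and both interrupted by an intron after the first 3 bases. The β-tubulin stretches were uninterrupted on the plus strand, at chr6:30720507-30720536 for TUBB, chr9:137241361-137241390 for TUBB4B, chr16:89923402-89923431 for TUBB3 and chr18:12308293-12308322 for TUBB6. TUBA1A, TUBA1B and TUBA1C had the same 30 bases, so 3 genes are represented by the first line. Each of the 12-base starts occurred at the coding start of at most 3 of 19687 protein-coding genes (0.0152%), searched on the coding strand only, and every holder was a tubulin gene.

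CEP20 mRNA was measured first, because it checks the labels. It was 29.2, 30.5 and 35.1 TPM in siCTR replicates 1 to 3 and 16.2, 15.3 and 17.3 TPM in the siCEP20 replicates. All siCEP20 libraries lay below all siCTR libraries, and 51.4% of the siCTR mean was left (log2 fold change -0.92, SE 0.0915; limma adjusted p = 0.000205; two-sided exact permutation p = 0.1, the smallest that 3 against 3 allows). Of 10 epithelial and A549 markers, 9 reached 1 TPM in every library, while 4 of 5 alveolar type II markers stayed below it throughout. The 3 leukocyte markers summed to 15.0 to 23.0 TPM in siCTR and 27.0 to 45.3 TPM in siCEP20, almost wholly from CD68, with CD3E at 0 in every library and PTPRC at no more than 0.0183 TPM. The 3 fibroblast markers summed to 5.39 to 6.15 TPM and 17.7 to 19.9 TPM, almost wholly from COL1A1, with COL3A1 and PDGFRB below 1 TPM throughout. The part of these markers in the results was not tested.

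In the siCEP20 libraries the mRNA of TTC5, TBCB and ARL2 fell, that of SCAPER, CNOT1, CNOT11 and TBCD rose, and TBCA, TBCC and TBCE did not pass the test. Thus 4 of the 10 genes rose and 3 fell at an adjusted p under 0.05 (limma on log2(TPM + 1), Benjamini-Hochberg over all 14778 tested genes), where 30.2% of all tested genes rose and 13.2% fell. Those shares depended on scaling: they were 19.7% and 21.8% with median-of-ratios scaling, 21.4% and 19.9% with quantile normalization, and 19.9% and 21.3% with correction for transcript length and GC content. With a fold change over 1.5 or under 0.67 also required, SCAPER was called higher and TTC5 and TBCB lower, against 11.2% and 4.61% of all tested genes. The 3 values of each group did not overlap for these same 4 and 3 genes, as for 38.4% and 17.0% of all tested genes. Their median log2 fold change was 0.08, beside 0.13 for all tested genes. Changes relative to that median are given where they matter.

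**Figure D1:**
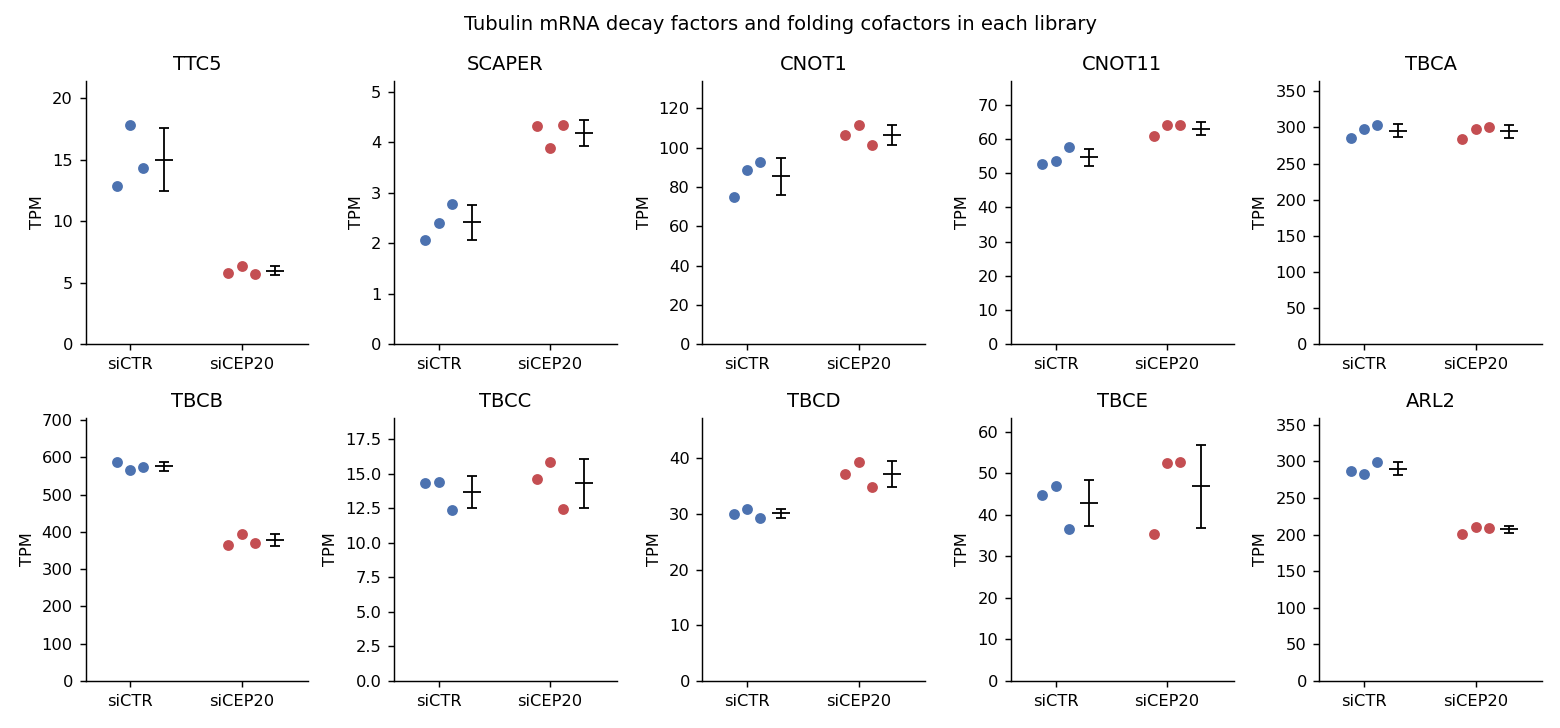
TPM of each of the 10 genes in every library, with a separate linear axis starting at 0 for each gene; points are the 3 siCTR and 3 siCEP20 libraries and bars the group mean ± SD. TTC5, TBCB and ARL2 are lower in all siCEP20 libraries, SCAPER, CNOT1, CNOT11 and TBCD are higher in all of them, and the groups overlap for TBCA, TBCC and TBCE.

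TTC5 (ENSG00000136319, chr14:20256558-20305960, minus strand, 10 exons in its canonical transcript), the ribosome-bound reader of the tubulin start, changed most among the 10 genes. Its level was 12.8, 17.8 and 14.4 TPM in siCTR and 5.82, 6.40 and 5.69 TPM in siCEP20. Every siCEP20 library held less than any siCTR library, and the gap between the groups was wider than the range within either. The mean went from 15.0 ± 2.57 to 5.97 ± 0.374 TPM (SD, n = 3 each), which is 39.8% of siCTR. The log2 fold change was -1.19 (SE 0.126, 95% interval -1.48 to -0.90, limma adjusted p = 0.000265), and -1.32 when the median over all tested genes was subtracted. In bulk RNA such as this, fewer cells of a type and less RNA per cell cannot be told apart.

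SCAPER (ENSG00000140386, chr15:76347904-76905444, minus strand, 32 exons), the adaptor between TTC5 and the deadenylase, moved the opposite way. It was the scarcest of the 10 genes, with 2.07, 2.40 and 2.78 TPM in siCTR and 4.31, 3.88 and 4.35 TPM in siCEP20. The lowest siCEP20 library was above the highest siCTR library, and the mean rose 1.73-fold, from 2.42 ± 0.350 to 4.18 ± 0.258 TPM (SD, n = 3 each; log2 fold change 0.60, SE 0.134, adjusted p = 0.00773). The fold change threshold was applied on the log2(TPM + 1) scale, which understates the change of scarce genes. On that scale SCAPER fell short of 1.5 after median-of-ratios scaling (log2 0.49), quantile normalization (0.45) or correction for the length and GC content of transcripts (0.39). The same held without siCTR replicate 1 (0.53) or siCEP20 replicate 3 (0.58). With 0.1 added to TPM in place of 1, the log2 fold change was 0.77 (limma adjusted p = 0.00813). With the ratio taken within each library, TTC5 over SCAPER fell from 6.26 ± 1.13 to 1.44 ± 0.184. The ratio was 6.18, 7.43 and 5.17 in siCTR and 1.35, 1.65 and 1.31 in siCEP20, so the groups were far apart on a scale that does not depend on how libraries are matched.

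CNOT1 and CNOT11, the scaffold of the deadenylase and the subunit through which SCAPER links to it, rose by less. CNOT1 (ENSG00000125107, chr16:58519951-58629885, minus strand, 49 exons) had 74.9, 88.4 and 92.7 TPM in siCTR and 106, 111 and 101 TPM in siCEP20. CNOT11 (ENSG00000158435, chr2:101252886-101270316, plus strand, 7 exons) had 52.8, 53.4 and 57.5 TPM in siCTR and 60.9, 64.1 and 64.0 TPM in siCEP20. For both genes every siCEP20 library was above every siCTR library. CNOT1 rose 1.25-fold (log2 0.32, SE 0.0862, adjusted p = 0.0179) and CNOT11 1.15-fold (log2 0.20, SE 0.0627, adjusted p = 0.0302), or by log2 values of 0.19 and 0.07 after subtracting that median. Neither rise held under every scaling: with median-of-ratios scaling the log2 value was 0.16 for CNOT1 (adjusted p = 0.0754) and 0.05 for CNOT11 (adjusted p = 0.461). CNOT1 also missed the threshold with no filter on TPM (adjusted p = 0.0657), and CNOT11 with quantile normalization (adjusted p = 0.0643) or eBayes without a trend (adjusted p = 0.0576). CNOT1 missed it without siCEP20 replicate 2 (adjusted p = 0.0639), as did CNOT11 without siCTR replicate 1 or 2 or siCEP20 replicate 2 or 3 (adjusted p of 0.0737 to 0.0894). Within each library, CNOT1 over CNOT11 was 1.56 ± 0.125 in siCTR and 1.69 ± 0.0911 in siCEP20, and the 2 groups overlapped.

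Among the 6 folding genes, TBCB (ENSG00000105254, chr19:36114289-36125947, plus strand, 6 exons), the cofactor that receives α-tubulin, fell most. Its level was 589, 565 and 574 TPM in siCTR and 366, 396 and 370.5 TPM in siCEP20. Every siCEP20 library lay far below the siCTR range, and the mean went from 576 ± 12 to 377 ± 15.9 TPM (SD, n = 3 each), which leaves 65.5% of siCTR. The log2 fold change was -0.61 (SE 0.05, 95% interval -0.72 to -0.50, adjusted p = 9.08e-05) and -0.74 relative to all tested genes. With the length and GC correction it was -0.57, just short of the fold change threshold. POLR2I, a subunit of RNA polymerase II, overlaps the start of TBCB on the opposite strand, but the canonical exons of the genes share no base. POLR2I itself went from 241 to 196 TPM (log2 fold change -0.30, adjusted p = 0.00256).

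TBCA (ENSG00000171530, chr5:77691166-77868780, minus strand, 4 exons), the cofactor that receives β-tubulin, stayed near its siCTR level. It had 285, 298 and 303 TPM in siCTR and 285, 298 and 300.1 TPM in siCEP20. The groups overlapped almost completely, and the log2 fold change was -0.01 with a 95% interval of -0.12 to 0.11 (adjusted p = 0.933). That interval leaves out a change as large as that of TBCB, although median-of-ratios scaling placed TBCA lower by a small amount (-0.16, adjusted p = 0.0162). TBCA over TBCB rose within libraries from 0.513 ± 0.0251 to 0.781 ± 0.0279, with no overlap between groups. TBCAP1, a processed pseudogene of TBCA on chromosome X, had 27.0, 37.0 and 35.2 TPM in siCTR and 45.0, 43.8 and 48.2 TPM in siCEP20. Reads of near-identical copies can be divided between them during quantification, and with both added together the log2 fold change was 0.05.

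ARL2 (ENSG00000213465, chr11:65014160-65022184, plus strand, 5 exons), the GTPase of the cofactor complex, was the third gene that fell. It had 286, 283 and 299.7 TPM in siCTR and 201, 211 and 209 TPM in siCEP20. No siCEP20 library came near the siCTR range, and 71.5% of the siCTR mean was left (log2 fold change -0.48, SE 0.0501, 95% interval -0.60 to -0.37, adjusted p = 0.000243). A read-through gene that joins ARL2 to SNX15 held at most 5.22 TPM in any library, and adding it gave a log2 fold change of -0.47. In the deposited TPM ARL2 did not reach the fold change threshold of 0.67. Its log2 fold change lay between -0.64 and -0.43 in the 16 alternative analyses, and with median-of-ratios scaling (-0.64, adjusted p = 9.1e-05) it was called lower.

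TBCD (ENSG00000141556, chr17:82752042-82945914, plus strand, 39 exons), the β-tubulin cofactor that binds ARL2, went the other way. Its level was 30.1, 30.9 and 29.2 TPM in siCTR and 37.1, 39.4 and 34.7 TPM in siCEP20. All siCEP20 libraries were higher, by 1.23-fold in the mean (log2 0.29, SE 0.0718, adjusted p = 0.0121). The rise no longer passed with median-of-ratios scaling (0.14, adjusted p = 0.139), quantile normalization (0.16, adjusted p = 0.102) or the length and GC correction (0.05, adjusted p = 0.551). ARL2 over TBCD, taken within libraries, was 9.53, 9.15 and 10.3 in siCTR and 5.41, 5.36 and 6.02 in siCEP20, so ARL2 was less abundant per TBCD transcript in every siCEP20 library. This ratio keeps any trend of the changes with transcript length, and ARL2 (932 bases) is far shorter than TBCD (7159 bases). With the length and GC correction the log2 fold change of ARL2 was -0.43. TBCD shares 1601 exonic bases (22.4% of its canonical transcript) with B3GNTL1 on the opposite strand, a gene that averaged 10.5 TPM in siCTR and 10.3 TPM in siCEP20.

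TBCE (ENSG00000284770, chr1:235367360-235452443, plus strand, 17 exons), the α-tubulin cofactor of the same complex, was the least even gene. It had 44.9, 47.0 and 36.6 TPM in siCTR and 35.3, 52.5 and 52.8 TPM in siCEP20. siCEP20 replicate 1 was the lowest of the 6 libraries while the other siCEP20 libraries were the highest, and the log2 fold change of 0.11 carried a 95% interval of -0.26 to 0.48 (adjusted p = 0.606). Without siCEP20 replicate 1 it was 0.30 (adjusted p = 0.0789). An overlapping read-through gene on the same strand, ENSG00000285053, had 5.79, 5.24 and 9.15 TPM in siCTR and 10.7, 9.92 and 8.64 TPM in siCEP20, and adding it to TBCE gave 0.18 (adjusted p = 0.26). TBCE and B3GALNT2 on the opposite strand share 1763 exonic bases, 32.8% of the TBCE transcript.

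TBCC (ENSG00000124659, chr6:42744498-42746103, minus strand), which has a single exon and acts at the release step, had 14.3, 14.4 and 12.4 TPM in siCTR and 14.6, 15.9 and 12.4 TPM in siCEP20. The groups overlapped, and the 95% interval of the log2 fold change, -0.20 to 0.31, covers both a small fall and a small rise (estimate 0.06, adjusted p = 0.708).

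**Figure D2:**
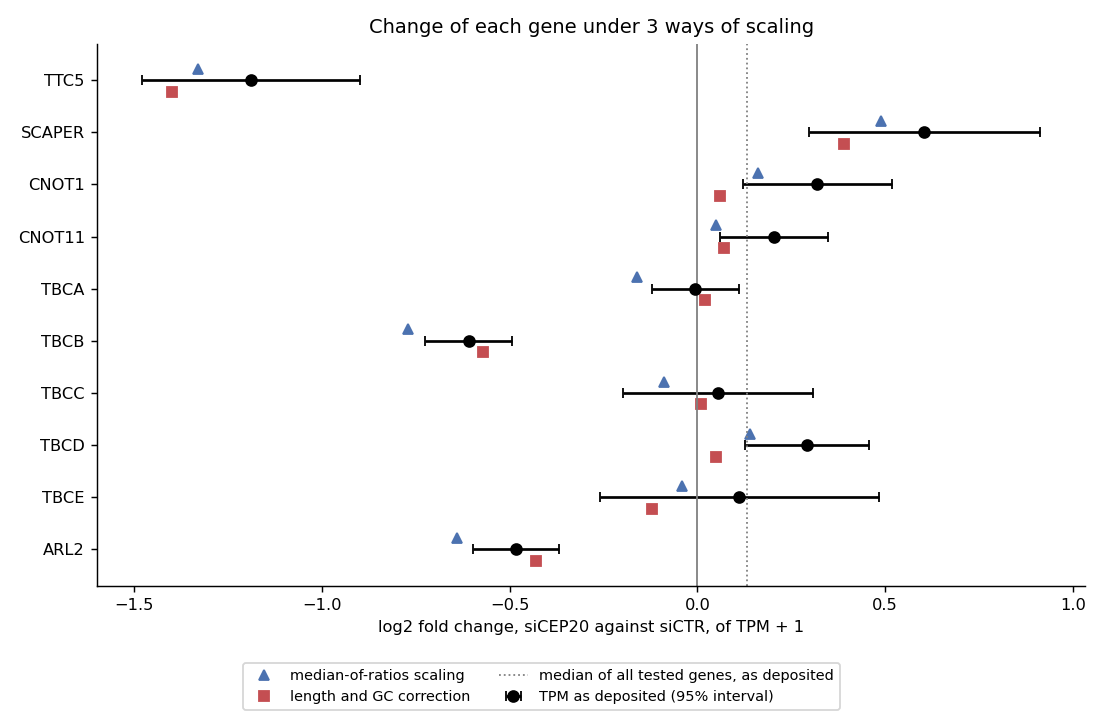
Log2 fold change of TPM + 1, siCEP20 against siCTR, for each gene: black points are the deposited TPM with 95% intervals from limma, blue triangles median-of-ratios scaling, red squares the length and GC correction, and the dotted line the median of all tested genes (0.13). TTC5 (-1.19), TBCB (-0.61) and ARL2 (-0.48) stay left of 0 under each scaling and SCAPER right of it, whereas CNOT1, CNOT11 and TBCD move close to 0 under at least 1 scaling.

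In siCTR cells the order of the levels, from the highest, was TBCB, TBCA, ARL2, CNOT1, CNOT11, TBCE, TBCD, TTC5, TBCC and SCAPER. TPM corrects for length, so levels can be set side by side. TBCA and ARL2 could not be separated, since their siCTR values overlapped, and neither could TTC5 and TBCC. Every other pair of neighbors was separated in the siCTR libraries. In siCEP20 cells only TTC5 and TBCC exchanged places. The 6 folding genes together fell from 1248 ± 8.55 to 977 ± 37.1 TPM (SD, n = 3 each), and the TBCB share of that sum went from 46.2% ± 0.836 to 38.6% ± 0.699. The 4 decay genes together went from 157 ± 13.1 to 179.5 ± 5.56 TPM, a sum set mostly by CNOT1.

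Most tubulin mRNAs, which the decay factors act on and which encode the proteins that the cofactors handle, moved upward. Of 17 α- and β-tubulin genes examined, 11 could be tested, and 10 of those rose, beside 30.2% of all tested genes, TUBB4B being the exception. After median-of-ratios scaling, quantile normalization or the length and GC correction, 9 of 11 passed upward, beside 19.7%, 21.4% and 19.9% of all tested genes, and the sign of TUBB4B turned with the first (-0.13) and the last (-0.00) of these. TUBA4A, an α-tubulin, rose most, from 116, 127 and 137 TPM to 342, 344 and 418 TPM (log2 fold change 1.53, SE 0.0935, adjusted p = 3.78e-05). TUBA1A went from 153 to 271 TPM in the mean (log2 0.82), TUBA1C from 312.5 to 461 TPM (0.56) and TUBA1B, the most abundant, from 1050 to 1330 TPM (0.34). Because TUBA1A, TUBA1B and TUBA1C are near-identical in coding sequence, the division of reads among them is uncertain.

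Of the β-tubulins, TUBB went from 686 to 921 TPM (log2 0.43), TUBB6 from 110 to 159 TPM (0.53) and TUBB3 from 117 to 154.5 TPM (0.40). TUBB4B had 363, 397 and 372 TPM in siCTR and 382, 400 and 370 TPM in siCEP20, and its 95% interval was -0.10 to 0.15 (adjusted p = 0.733). TUBB4B and TUBB carry the same first 12 coding bases in the sequences above, but only TUBB passed the test. The difference between these genes was not tested. The α-tubulin genes summed to 1517, 1693 and 1716 TPM in siCTR and 2330, 2407 and 2555 TPM in siCEP20 (1.48-fold). The β-tubulin genes summed to 1283, 1399 and 1369 TPM in siCTR and 1673, 1746 and 1685 TPM in siCEP20 (1.26-fold).

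Setting tubulin mRNA against factor mRNA within each library removed the scaling between libraries. It did not remove the trend of the changes with transcript length that is described further below. The α-tubulin sum over TBCB was 2.58, 3.00 and 2.99 in siCTR and 6.37, 6.08 and 6.90 in siCEP20, a 2.26-fold higher mean. The β-tubulin sum over TBCA was 4.50, 4.69 and 4.51 against 5.88, 5.85 and 5.61, a 1.27-fold higher mean. The groups did not overlap for either ratio. Against the other cofactor of each subunit they did: the α-tubulin sum over TBCE was 33.8, 36.0 and 46.8 in siCTR and 65.9, 45.9 and 48.4 in siCEP20. The β-tubulin sum over TBCD was 42.7, 45.2 and 46.9 against 45.0, 44.3 and 48.5, with means within 1 SD of each other. TBCD, at 7159 bases, is in the class of longest transcripts. With the length and GC correction its log2 fold change was 0.05, while the median of the tested β-tubulins was 0.34. All tubulin over TTC5 went from 202 ± 25 to 694 ± 48.0 (SD, n = 3 each), which is 3.43-fold, with no overlap. Protein levels were not measured in these files.

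**Figure D3:**
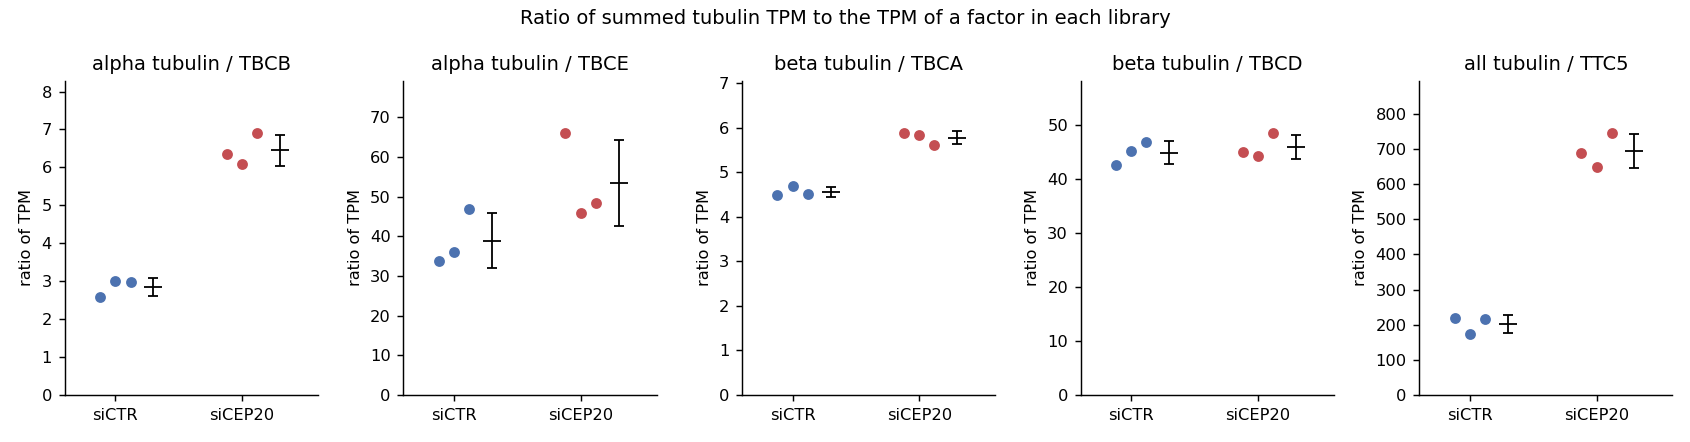
Ratio of summed tubulin TPM to the TPM of a factor in the same library (α-tubulin over TBCB and TBCE, β-tubulin over TBCA and TBCD, and all tubulin over TTC5), with a separate linear axis from 0 in each panel; points are libraries and bars the group mean ± SD. All siCEP20 points lie above the siCTR points for TBCB, TBCA and TTC5 (means 2.26, 1.27 and 3.43 times those of siCTR), and the groups overlap for TBCE and TBCD.

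The other genes listed with CCR4-NOT ranged in log2 fold change from -0.30 to 0.68. In the deposited TPM 5 of 9 rose, beside 30.2% of all tested genes. The other 4, CNOT6 (-0.30), CNOT6L (-0.14), CNOT7 (0.14) and CNOT8 (-0.07), did not pass. After median-of-ratios scaling 1 rose and 1 fell, beside 19.7% and 21.8% of all tested genes. These were CNOT4 (0.53, limma adjusted p = 0.00868) and CNOT6 (-0.45, limma adjusted p = 0.0134). With the length and GC correction 2 rose and 2 fell, beside 19.9% and 21.3%. The count that rose was 3 without siCTR replicate 1, siCTR replicate 2 or siCEP20 replicate 2, beside 22.6% to 26.0%. The 3 with the smallest adjusted p were CNOT4, a ubiquitin ligase (10.9 to 18.1 TPM, log2 0.68, adjusted p = 0.00423), CNOT2 (33.2 to 41.9 TPM, 0.32) and CNOT3 (103 to 142.5 TPM, 0.45). Among 22 other deadenylation and decapping factors 9 rose and 1 fell, beside 30.2% and 13.2% of all tested genes. After median-of-ratios scaling 6 rose and 4 fell, beside 19.7% and 21.8%. LSM7, of the decapping-activating LSM ring, was the one that fell in the deposited TPM (85.5 to 41.4 TPM, log2 -1.03, adjusted p = 7.70e-05). BTG1, a deadenylase-binding antiproliferative protein (78.1 to 131 TPM, 0.74), and DCP1B, a decapping cofactor (9.39 to 18.7 TPM, 0.93), rose.

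Upstream of the cofactors, prefoldin hands unfolded tubulin to CCT. Of 14 CCT and prefoldin subunits 8 fell and 2 rose, beside 13.2% and 30.2% of all tested genes. After median-of-ratios scaling 10 fell and 1 rose, beside 21.8% and 19.7% of all tested genes. In the deposited TPM their median log2 fold change was -0.18. PFDN5 went from 435 to 271 TPM (log2 -0.68, adjusted p = 5.22e-05), PFDN6 from 99.8 to 61.9 TPM (-0.68) and CCT4 from 364 to 278 TPM (-0.39). CCT5, named after its values were seen, rose from 184 to 240.2 TPM (log2 0.38, adjusted p = 0.00140). Within the list, 5 of 8 CCT and 3 of 6 prefoldin subunits fell in the deposited TPM, beside 13.2% of all tested genes.

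Of the relatives and partners of ARL2 and the cofactors, 10 of 11 could be tested, of which 2 rose and 1 fell, beside 30.2% and 13.2% of all tested genes. Without siCEP20 replicate 3 the counts in limma were 0 and 0, beside 25.6% and 11.2% of all tested genes (2 and 1 at an unadjusted p under 0.05). With any 1 siCTR library left out 1 rose, beside 24.3% to 29.3%. The fall of RP2 did not pass without siCTR replicate 2 or 3. ARL2BP, which binds GTP-loaded ARL2, went from 97.0 to 115 TPM (log2 0.25, adjusted p = 0.0164), and UNC119, a carrier of lipid-modified cargo, from 33.1 to 46.5 TPM (0.49, adjusted p = 0.0199). RP2, a relative of TBCC that activates the GTPase of ARL3, went from 11.6 to 7.75 TPM (-0.52, adjusted p = 0.0195). With median-of-ratios scaling 2 genes of this list fell, beside 21.8% of all tested genes, and the rises no longer passed.

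**Figure D4:**
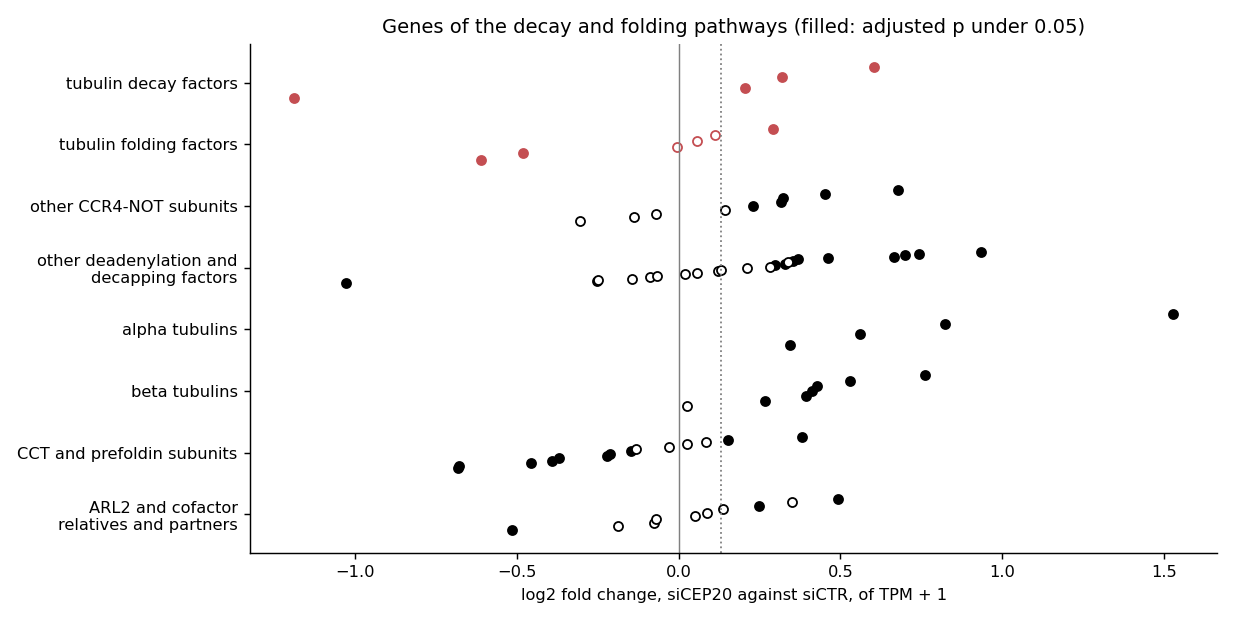
Log2 fold change of TPM + 1, siCEP20 against siCTR, of every tested gene in each list, filled where the gene passed the adjusted p threshold and open where it did not, with the 10 decay and folding genes in red, vertical offsets for legibility only, and the dotted line at the median of all tested genes (0.13). The α-tubulins lie furthest to the higher side (median 0.69), followed by the β-tubulins (0.41), while CCT and prefoldin subunits lie mostly below 0 (median -0.18).

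The change of a gene in these libraries moved with transcript length. When the tested genes were split by length into 10 classes of nearly equal size, the median log2 fold change was -0.06 in the class of shortest transcripts (53 to 753 bases) and 0.28 in the class of longest ones (7048 to 34626 bases). TBCB (987 bases) and ARL2 (932 bases) belong to a class with a median of -0.04 and lay well below it. TTC5 (4737 bases) and SCAPER (5033 bases) share another, with a median of 0.20, and lay on opposite sides of it. CNOT1 (8411 bases) and TBCD (7159 bases), with log2 fold changes of 0.32 and 0.29, were close to the 0.28 of the longest class. With the length and GC correction TTC5 (-1.40), TBCB (-0.57), ARL2 (-0.43) and SCAPER (0.39, adjusted p = 0.0329) still passed the adjusted p threshold, although SCAPER did not once the replicate number was also a block (adjusted p = 0.0635), whereas CNOT1 (0.06, adjusted p = 0.378) and CNOT11 (0.07, adjusted p = 0.251) did not.

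**Figure D5:**
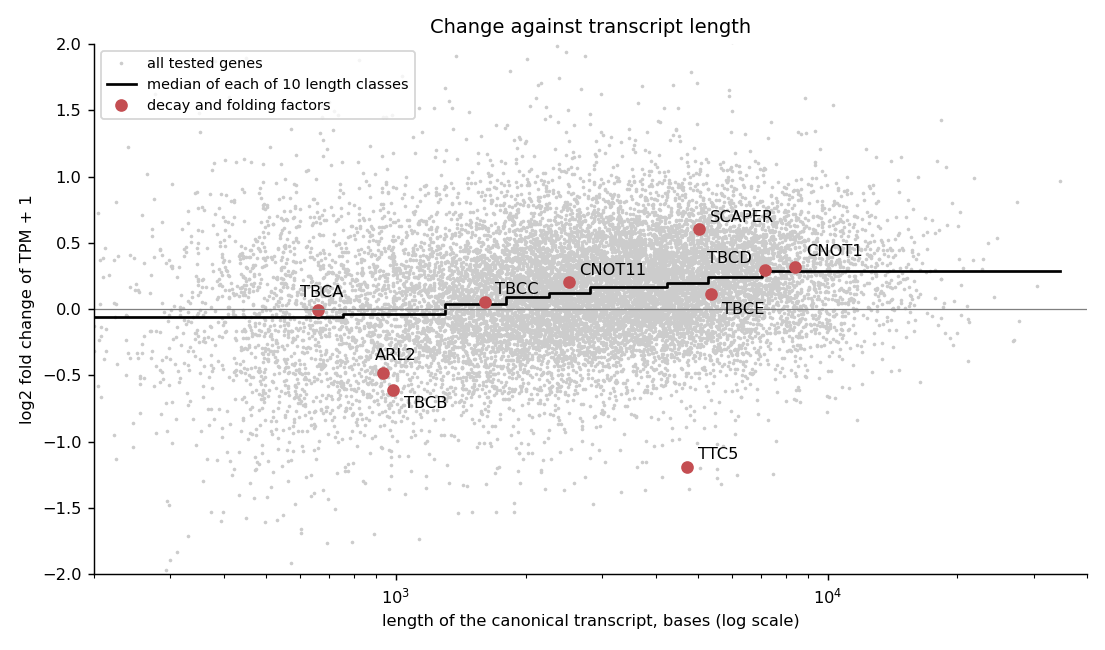
Log2 fold change of TPM + 1, siCEP20 against siCTR, against the length of the canonical transcript in bases (log axis); gray points are tested genes, of which 189 lie outside the axes, the line is the median of each of 10 length classes, and red points are the 10 decay and folding genes. TTC5 lies far below the genes of its length, TBCB and ARL2 below theirs and SCAPER above, while CNOT1, TBCD, CNOT11, TBCC and TBCA lie near the line.

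The profiles nearest to TTC5 over the 6 libraries, by root mean square distance of the centered log2(TPM + 1) values, were those of ACTR6 (0.0781), GOLT1A (0.104) and GALC (0.106), where the median distance over all tested genes was 0.690. ACTR6, for instance, had 20.9, 25 and 22.1 TPM in siCTR and 9.43, 9.24 and 9.42 TPM in siCEP20. For TBCB they were PRDX5 (0.0261), LDHB (0.0263) and MYL6 (0.0263), against a median distance of 0.407. These distances rest on 6 libraries in 2 groups, and any gene with a like difference between the groups comes out near.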

How the data were processed

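RNA-seq of A549 cells was analyzed in 3 siCEP20 and 3 siCTR libraries. The authors trimmed reads with fastp 0.20.1, aligned them to hg38 with HISAT2 2.1.0 and quantified genes with StringTie 2.0, per the submitters' processing notes, and deposited TPM for each gene in 1 table. The annotation release is not given in the sources used here. Depth is unknown from TPM, so precision rests on 3 libraries per group. The labels do not say that these came from separate cultures, so p-values measure only the spread between these samples, which may be technical. Labels and paper differ on the medium (F-12K or DMEM), the RNA extraction and the input, and the labels name a plasmid transfection beside the siRNA. Which siRNA was sequenced is not given in the labels.

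Genes were placed with GENCODE 44; 60370 of 60624 identifiers matched. Genes averaging 1 TPM or more were tested on the log2(TPM + 1) scale with limma 3.58.1 in R 4.3.3 (eBayes with a trend, no rescaling, no block), adjusted by Benjamini-Hochberg. Fold changes are on that scale, which understates the change of scarce genes. The fold thresholds are those of the study. The steps were tested on simulated data.

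The genes and lists were chosen with earlier results of these data known. The named genes were CEP20, the 10 genes, tubulins averaging 50 TPM or more, the 3 genes of each list with the smallest adjusted p, read-through genes, and the 3 nearest profiles of TTC5 and TBCB. CCT5, which rose where most of its list did not, was added after its values were seen. Markers, overlapping genes and TBCAP1 were named beside the values they touch, the last 2 kinds after seeing the data. Alternatives were a pseudocount of 0.1, no TPM filter or one of 5 TPM, median-of-ratios and quantile scaling, eBayes with its trend switched off, a replicate block, a length and GC correction (loess, span 0.5, for the 99.7% of tested genes with both values), summed read-through genes, and each library left out.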

Additional observations from a re-analysis of the deposited data

How the results depend on the processing

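The falls of TTC5, TBCB and ARL2 passed the adjusted p threshold in limma under all alternatives run, 15 each for TTC5 and TBCB and 16 for ARL2, whereas the rises depended on scaling. Of the 10 genes, 4 rose in the deposited TPM, 1 with median-of-ratios scaling, 2 with quantile normalization, 1 with the length and GC correction, 0 with that correction and the replicate block together (1 at an unadjusted p under 0.05), and 2 to 4 with a library left out. Among all tested genes, 30.2%, 19.7%, 21.4%, 19.9%, 18.2% and 22.6% to 29.3% rose, in the same order. The single gene called higher, SCAPER, became 0 with a filter of 5 TPM, which removes it, with median-of-ratios scaling, quantile normalization, or the length and GC correction with or without the block, and 0 to 1 with a library left out. Genes called lower went from 2 to 3 with median-of-ratios scaling, which added ARL2, and to 1 with the length and GC correction, with or without the block. The shares of all tested genes called under these alternatives are not given here, so these counts of calls have no such comparison. The median log2 fold change of the 10 genes, 0.08, was -0.07 with median-of-ratios scaling, -0.01 with quantile normalization, and 0.00 to 0.14 with a library left out. The median of all tested genes moved as well, from 0.13 to -0.005, 0.008, and 0.10 to 0.16, in the same order. Of the 66 tested genes of the related lists, 28 rose and 10 fell, beside 30.2% and 13.2% of all tested genes. Median-of-ratios scaling gave 17 and 17, beside 19.7% and 21.8% of all tested genes. The length and GC correction gave 16 that fell, beside 21.3%, and that correction with the block gave 16 that rose, beside 18.2%. Left-out libraries gave 22 to 26 that rose, beside 22.6% to 29.3%, and 8 to 10 that fell, beside 10.1% to 11.8%. The sign of 3 genes that did not pass turned. TBCA was 0.02 with the length and GC correction, with or without the block, 0.05 with the pseudogene added (an alternative chosen after seeing the data), and -0.03 to 0.02 with a library left out (0.00, 0.01 and 0.02 without siCTR replicate 2, siCTR replicate 3 and siCEP20 replicate 1). TBCC was -0.09 with median-of-ratios scaling, -0.10 with quantile normalization, and -0.02 to 0.15 with a library left out (-0.01 and -0.02 without siCTR replicate 3 and siCEP20 replicate 2). TBCE was -0.04 with median-of-ratios scaling and -0.12 with the length and GC correction, with or without the block. The cause of these changes was not tested.

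No pairing of the libraries by replicate number was seen. Same-numbered libraries had correlations of 0.157, -0.0614 and -0.0623 between their deviations from the group means, and differently numbered ones had -0.121 to 0.17. Not every library correlated best with its own number. With 3 libraries per group, such weak correlations cannot settle whether the libraries were paired. With the number as a block, 4 of the 10 genes rose and 3 fell, as without it, beside 28.9% and 12.6% of all tested genes. Of the 66 tested genes of the related lists, 26 rose and 9 fell with the block.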
